A study of Mus musculus with 4 samples.

Results

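Imprinted genes are expressed from the copy inherited from 1 parent. A set of 33 autosomal imprinted mouse genes was chosen by gene name from a table of 55820 loci that covers RNA sequencing of young testes, and all 33 were found in it. Of these, 20 are known as paternally expressed and 11 as maternally expressed. The remaining 2, *Grb10* and *Gnas*, are expressed from either parent's copy according to tissue or transcript. The members lie on 10 chromosomes, and 13 of them are on chromosome 7.

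Whole testes of male C57BL/6J mice at postnatal day 10 (P10) were sequenced, with 2 control libraries and 2 Mps1sKO libraries. In Mps1sKO mice, *Stra8*-Cre removes the floxed part of *Mps1* (*Ttk*), a kinase of the spindle assembly checkpoint, in germ cells. The authors describe this Cre as expressed from early spermatogonia on, with an increase up to preleptotene spermatocytes. The somatic cells of the testis keep the gene. Which alleles the control mice carried, and how many mice went into a library, is not given in the sources used here, so p-values measure the spread between these libraries. The question asked here was whether imprinted genes, and paternally or maternally expressed ones in particular, differed between the genotypes.

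Imprinting rests on DNA methylation that is set differently in eggs and sperm at imprinting control regions and is then kept through the divisions of the embryo. Control regions often act over a whole domain, in which a noncoding RNA from one parental copy goes along with silencing of neighbouring protein genes on that copy. Many imprinted genes act on growth, with paternally expressed genes such as *Igf2* tending to promote it and maternally expressed genes such as *Cdkn1c*, *Grb10* and *Igf2r* tending to restrain it, and many are highly expressed before and shortly after birth and decline later. The germ line erases the inherited marks and lays down those of its own sex, while Sertoli, Leydig and stromal cells of the testis keep the somatic pattern. In an inbred strain the reads of the parental copies cannot be separated, so the class of each gene is background and was not measured, and imprinting of several members, *Dcn*, *Ube3a* and *Slc22a18* among them, is known to depend on the tissue.

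A sequence feature that was not used to choose the genes is the hexamer TGCCGC, which ZFP57 binds when it is methylated and which recurs in imprinting control regions. In the 250 bases before the start sites in RefSeq (GRCm38.p6), 26 of the 33 members were matched, with 41 windows. Those not matched were *Peg13*, *Cdkn1c*, *Peg10*, *H19*, *Dcn*, *Sgce* and *Impact*. The hexamer or its reverse complement GCGGCA was present for 5 of the 26 (19.2%), which are *Mest*, *Nap1l5*, *Zim1*, *Plagl1* and *Meg3*, against 9.84% of all 27025 genes with such a window. The window richest in CpG held a median of 10 CpG over the members and 6 over all genes. The letters of 5 members are shown because they span the range from a CpG-rich imprinted promoter to a start site with no CpG, and because 4 of these genes are among those with the lowest p in the genotype comparison. Each is the member's window with the most CpG, printed 5′ to 3′ along the gene's strand, and capitals mark the hexamer on either strand. A match describes these letters only, and neither binding nor methylation was measured.
Plagl1, chr10:13090582-13090831, strand +: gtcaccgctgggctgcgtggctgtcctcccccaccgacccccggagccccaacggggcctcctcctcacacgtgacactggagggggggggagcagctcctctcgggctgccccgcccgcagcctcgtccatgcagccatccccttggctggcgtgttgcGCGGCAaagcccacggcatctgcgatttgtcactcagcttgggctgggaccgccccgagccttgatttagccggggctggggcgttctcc
Mest, chr6:30737800-30738049, strand +: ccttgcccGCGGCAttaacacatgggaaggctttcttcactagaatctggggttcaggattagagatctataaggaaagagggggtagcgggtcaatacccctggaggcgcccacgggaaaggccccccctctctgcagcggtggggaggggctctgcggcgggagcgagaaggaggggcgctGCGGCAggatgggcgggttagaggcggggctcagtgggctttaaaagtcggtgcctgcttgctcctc
Meg3, chr12:109540746-109540995, strand +: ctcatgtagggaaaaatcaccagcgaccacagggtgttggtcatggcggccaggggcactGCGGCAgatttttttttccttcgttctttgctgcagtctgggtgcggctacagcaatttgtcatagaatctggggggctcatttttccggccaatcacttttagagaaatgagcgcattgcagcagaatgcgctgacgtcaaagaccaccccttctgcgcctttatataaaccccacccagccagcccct
Kcnq1ot1, chr7:143296548-143296797, strand -: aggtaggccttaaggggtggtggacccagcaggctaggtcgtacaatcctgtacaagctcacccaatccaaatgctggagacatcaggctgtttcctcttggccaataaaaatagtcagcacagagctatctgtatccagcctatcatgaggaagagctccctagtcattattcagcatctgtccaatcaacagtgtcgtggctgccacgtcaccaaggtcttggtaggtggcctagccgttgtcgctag
Rian, chr12:109603695-109603944, strand +: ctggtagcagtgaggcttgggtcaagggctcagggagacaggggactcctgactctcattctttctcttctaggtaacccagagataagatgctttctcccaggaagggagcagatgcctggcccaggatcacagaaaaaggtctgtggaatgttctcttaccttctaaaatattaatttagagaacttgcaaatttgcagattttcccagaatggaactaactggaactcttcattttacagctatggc

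The *Plagl1* window held 19 CpG and 1 hexamer, and the *Mest* window 14 CpG and 2 hexamers. The *Meg3* window had 10 CpG and 1 hexamer, and the *Kcnq1ot1* window 5 CpG and none. No CpG was present in the *Rian* window, which starts within the long transcribed stretch downstream of *Meg3*.

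The control libraries held 26819122 and 28607746 counts and the Mps1sKO libraries 23311689 and 27093849. *Ttk* itself was at 27.9 and 32.6 CPM (counts scaled to the library's total times its TMM factor) in control and at 13.03 and 12.2 CPM in Mps1sKO libraries, with −1.26 for its log2 fold change (adjusted p = 0.0461, edgeR), so the labels held for the targeted gene. Markers of the expected cell types were detected, with 29 of 29 meiotic prophase genes, 12 of 12 Leydig genes and 22 of 23 Sertoli genes passing edgeR's filter on low counts. The exception was *Rhox5*, at 0 counts in all 4 libraries. Summed Sertoli markers were 9575 and 9395 CPM in control and 11680 and 11510 CPM in Mps1sKO libraries, and summed meiotic prophase markers were 1511 and 1948 CPM in control and 1305 and 1033 CPM in Mps1sKO libraries. In bulk tissue, fewer cells of a type and less RNA per cell cannot be told apart. How far these shifts in cell-type markers contribute to the values of the imprinted genes was not tested.

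The imprinted genes covered a wide range of levels. By FPKM, a level per gene length that the authors deposited, 23 of the 33 members had a mean of at least 1 over the 4 libraries. *Dlk1*, *Meg3* and *Rian* are counted there by their chromosome 12 rows, which are below 1. Loci on a patch scaffold at the same positions had means of 3.31, 12.4 and 2.59 FPKM. *H19*, a maternally expressed noncoding RNA, was the highest, with 97.6 and 87.8 FPKM in control and 81.0 and 93.6 FPKM in Mps1sKO libraries. *Dcn*, which encodes the matrix proteoglycan decorin, followed at 51.7 and 52.1 FPKM in control and 51.4 and 57.5 FPKM in Mps1sKO libraries. For both genes the 2 groups overlapped.

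The next in order were paternally expressed. *Ndn*, which encodes the growth suppressor necdin, was at 26.5 and 24.4 FPKM in control and 27.5 and 30.0 FPKM in Mps1sKO libraries. *Peg3*, a zinc finger gene, was at 21.3 and 21.9 FPKM in control and 23.7 and 22.3 FPKM in Mps1sKO libraries. *Peg10*, a gene derived from a retrotransposon, was at 16.1 and 15.4 FPKM in control and 19.4 and 19.7 FPKM in Mps1sKO libraries. For each of these 3 genes both Mps1sKO libraries lay above both control libraries, as for 20.3% of all loci tested. In the order of levels, *Ndn* and *Peg3* did not overlap with each other in any library, and neither did *H19* and *Dcn*, while *Peg10* overlapped with *Plagl1*, the next below it, at a mean of 16.2 FPKM.

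Mid-range levels of about 9 to 14 FPKM were shared by the mannose-6-phosphate and IGF2 receptor gene *Igf2r* (mean 13.5 FPKM), the adaptor gene *Grb10* (13.4), *Nnat* (11.96), the zinc finger gene *Zim1* (11.3), *Gnas*, which encodes the stimulatory G protein subunit (9.90), the cell cycle inhibitor gene *Cdkn1c* (9.41) and *Impact* (8.81). At the low end were *Rasgrf1*, a guanine nucleotide exchange factor gene (mean 0.231 FPKM), *Magel2* (0.222), *Usp29* (0.150) and *Rian* (0.0317). The *Rian* value is that of its chromosome 12 row, which holds only a small part of its reads, and a patch scaffold locus at the same position had a mean of 2.59 FPKM. In the same way *Meg3* had 0.327 FPKM on chromosome 12 and 12.4 FPKM on the patch locus. *Igf2*, the fetal growth factor gene that shares its control region with *H19*, had a mean of only 0.954 FPKM. In GENCODE M21, 62.8% of the exon bases counted for *Igf2* (3596 of 5723) are also exon of *Gm49394* on the same strand, which was listed at 0 counts in all 4 libraries. Reads in such shared exons are often left out of both genes, and whether they were here was not tested, so the low value of *Igf2* is uncertain.

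Over the genotype comparison the imprinted genes sat slightly above 0, with no gene past an adjusted threshold. Of the 33 members, 32 passed the filter on low counts and *Dlk1* did not. Among the 32, 23 had a higher and 9 a lower estimate in Mps1sKO testes, and the median of the log2 fold changes was 0.087 against 0.0003 for all 20561 loci tested. With edgeR's quasi-likelihood test, 0 of the 32 had an adjusted p below 0.05, where 0.0292% of all loci did. The unadjusted p was below 0.05 and the gene higher for 5 of the 32 (15.6%), against 3.92% of all loci, and for 0 the gene was lower, against 5.37% of all loci. DESeq2 gave 2 higher members, *Peg10* and *Plagl1*, at an unadjusted p below 0.05, against 1.51% of all loci in that fit, and 0 at an adjusted one, against 0.241% of the loci given an adjusted p. With edgeR the number of higher members was 0 without control replicate 2, against 1.49% of all loci in that fit, and 2 without Mps1sKO replicate 1, against 5.81%. The count of 0 lower members also did not hold for every library left out. Of the 5 higher members, *Meg3* and *Rian* are called on chromosome 12 rows that hold a small part of their reads. With the patch scaffold loci at the same positions summed in, 3 members were higher, against 3.91% of all loci, and 1, *Rian*, was lower, against 5.37%.

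Both Mps1sKO libraries lay above both control libraries for 14 of the 32 members (43.8%), against 20.3% of all loci. They lay below both control libraries for 0 members, against 21.1% of all loci. The 14 are *Peg10*, *Kcnq1ot1*, *Plagl1*, *Meg3*, *Rian*, *Mirg*, *Magel2*, *Airn*, *Peg3*, *Zim1*, *Snrpn*, *Ndn*, *Gnas* and *Peg13*. With the patch loci summed, *Meg3* overlapped and *Rian* lay below in both Mps1sKO libraries, so 12 members were above and 1 below, against 20.3% and 21.1% of all loci in that fit. The members share the same 4 libraries and in part the same domains, so they are not independent observations. With 2 libraries in each group, an exact permutation test of a single gene cannot give a two-sided p below 0.333, so all p-values come from the model fitted across loci.

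**Figure D1:**
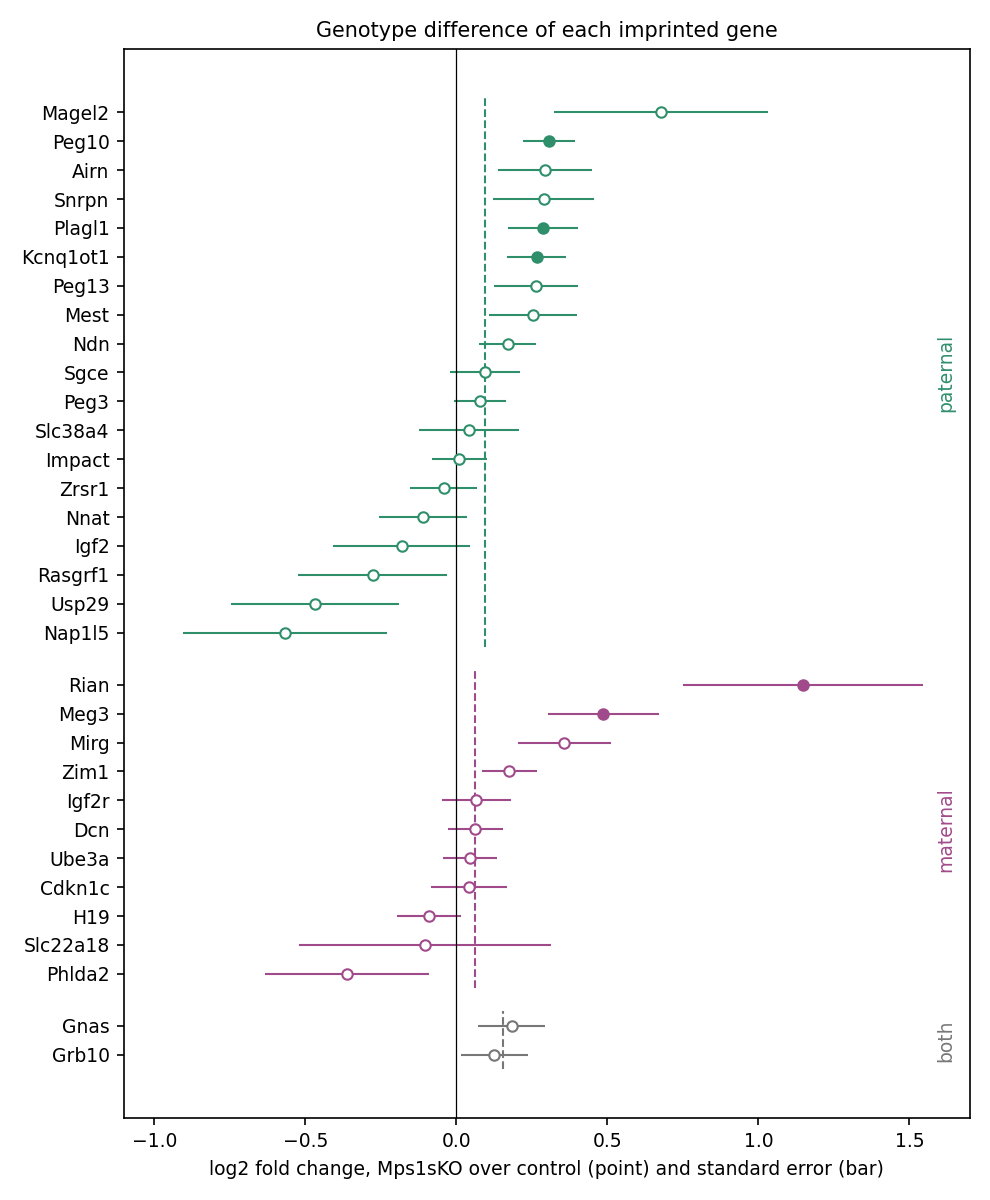
Log2 fold change of Mps1sKO over control (horizontal axis, points) with its standard error (bars) for the 32 tested imprinted genes, grouped by the parental copy known to be expressed. Filled points have an unadjusted p below 0.05 from edgeR and dashed lines are class medians, which are 0.094 for 19 paternally and 0.063 for 11 maternally expressed genes; *Meg3* and *Rian* are drawn by their chromosome 12 rows, and with the patch loci summed *Meg3* was at 0.20 and *Rian* at −0.89.

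The paternally and maternally expressed classes were close to each other. Of 19 paternally expressed genes tested, 13 had a higher and 6 a lower estimate, with a median log2 fold change of 0.094, and 3 had an unadjusted p below 0.05. Of 11 maternally expressed genes, 8 had a higher and 3 a lower estimate, with a median of 0.063, and 2 had an unadjusted p below 0.05. The called genes of both classes were higher, where 3.92% of all loci were higher and 5.37% lower at that threshold. The 2 maternally expressed ones are *Meg3* and *Rian* on their chromosome 12 rows. With the patch loci summed, the maternally expressed class had 0 higher and 1 lower gene at that threshold and a median of 0.046. The paternally expressed class, with *Dlk1* then tested, had 3 higher and 0 lower of 20 and a median of 0.087. Of all loci in that fit, 3.91% were higher and 5.37% lower at that threshold. Without the patch loci, the medians differed by 0.031. The class medians varied between libraries of a genotype with an SD of 0.0427 (paternal) and 0.0586 (maternal). Combined as if independent, these SDs give 0.0725, which is larger than the difference. Both classes come from the same libraries, and the spread of the difference itself was not computed. Without Mps1sKO replicate 2 the difference was −0.077. Summed over genes, paternally expressed members took 869 and 843 CPM in control and 965 and 939 CPM in Mps1sKO libraries, so both Mps1sKO libraries were above both controls. Maternally expressed members took 922 and 880 CPM in control and 912 and 938 CPM in Mps1sKO libraries, and the groups overlapped. The sums leave out the patch loci. The maternal sum is made up largely of *Dcn* and *H19*, and the paternal sum largely of *Peg3*, *Plagl1*, *Peg10* and *Ndn*. For each of these 4 paternally expressed genes alone, both Mps1sKO libraries were above both controls, as for 20.3% of all loci. The paternal sum is therefore not separate from these genes. No test was made of either sum.

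*Peg10* had the lowest p of the members. It lies on chromosome 6 from 4747306 to 4760517 (GRCm38), and its protein, with retroviral Gag and Pol features, is needed for the placenta. It was at 108 and 103 CPM in control and 130 and 131.5 CPM in Mps1sKO libraries. The gap between the groups was larger than the distance between the libraries of either one, and the log2 fold change was 0.31 (standard error 0.086, 1.24-fold, adjusted p = 0.494 from edgeR). The estimate stayed between 0.27 and 0.34 over 15 alternatives of the processing. *Sgce*, which encodes a sarcoglycan, starts 99 bases away on the other strand and is paternally expressed with it. It was at 39.0 and 35.7 CPM in control and 36.5 and 43.1 CPM in Mps1sKO libraries, with overlapping groups and a log2 fold change of 0.094 (SE 0.116), which turned to −0.031 without Mps1sKO replicate 2. Whether the neighbours differ from each other in their response was not tested.

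*Plagl1* encodes a zinc finger factor that regulates a network of imprinted genes. It lies on chromosome 10 from 13060504 to 13131694. The window with 19 CpG and 1 hexamer belongs to it. It was at 121 and 108 CPM in control and 153 and 126 CPM in Mps1sKO libraries. Control replicate 1 and Mps1sKO replicate 2 lay close to each other, and the log2 fold change was 0.29 (SE 0.116, adjusted p = 0.527 from edgeR). Over the 15 alternatives the estimate ranged from 0.146 to 0.419. With edgeR its unadjusted p was 0.0527 by library size alone and 0.0591 with the replicate block.

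*Kcnq1ot1* is the long noncoding RNA transcribed from the paternal copy inside *Kcnq1*, on chromosome 7 from 143203458 to 143296549, and it goes along with silencing of its neighbours on that copy. It was at 39.8 and 41.4 CPM in control and 50.9 and 46.8 CPM in Mps1sKO libraries. The groups were apart, with a log2 fold change of 0.27 (SE 0.097, adjusted p = 0.510 from edgeR). The estimate of *Kcnq1ot1* stayed between 0.204 and 0.327 over the 15 alternatives. Its unadjusted p was 0.0516 from DESeq2 and 0.0846 from edgeR with the replicate block. The maternally expressed genes of its domain had no common direction. *Cdkn1c* had a log2 fold change of 0.043 (SE 0.126), *Slc22a18*, a transporter gene with 14 to 24 counts per library, of −0.11 (SE 0.417), and *Phlda2*, a growth-restraining gene of the placenta, of −0.36 (SE 0.272). Overlap in the annotation limits *Cdkn1c*, since 30.7% of its exon bases are shared with *Gm44732*, which is on the other strand and had 0 counts in all libraries.

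**Figure D2:**
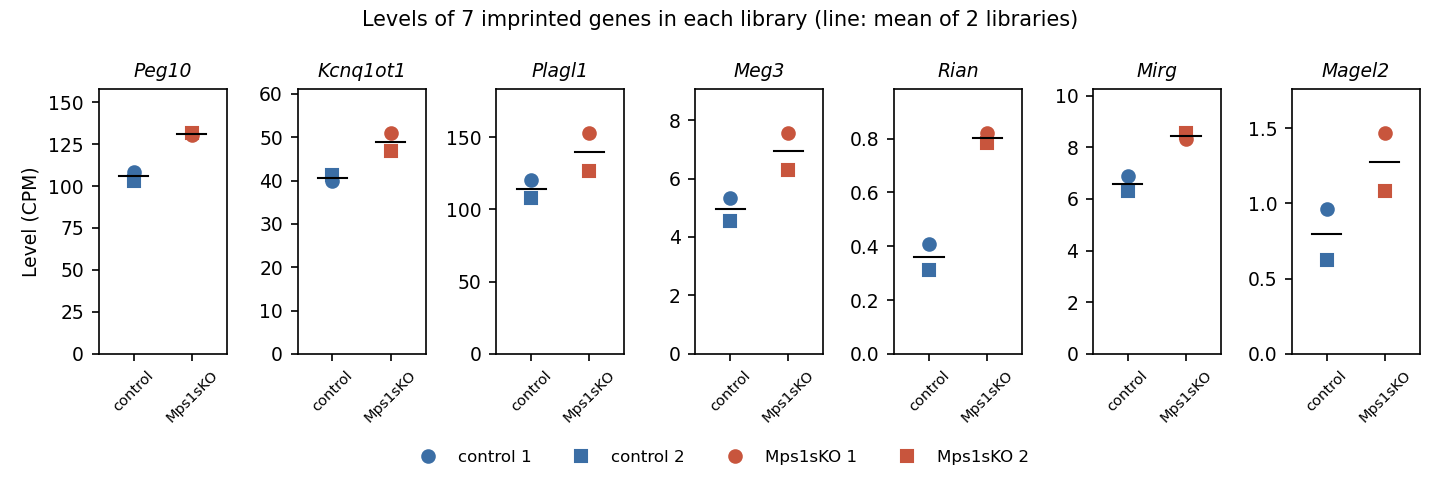
Level in CPM (vertical axis from 0, each panel on its own scale) of the 5 imprinted genes with an unadjusted p below 0.05 and of *Mirg* and *Magel2*, with 1 point per library (circle replicate 1, square replicate 2) and a line at the mean of each genotype. In all 7 panels both Mps1sKO libraries lie above both control libraries, as for 20.3% of all loci. For *Mirg* and *Magel2* this follows from their choice, by groups apart and an absolute log2 fold change above 0.3, and the other 5 were chosen by p. The *Meg3* and *Rian* panels hold the chromosome 12 gene alone.

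The *Dlk1*-*Meg3* domain on chromosome 12 needs its reads counted from more than 1 place. *Dlk1*, the paternally expressed gene for a transmembrane protein with EGF repeats, was listed at 0 counts in all 4 libraries, which allows up to 3 counts or 0.104 to 0.129 CPM, by counting error only. *Meg3*, the maternally expressed noncoding RNA from 109541001 to 109571726, was at 5.35 and 4.54 CPM in control and 7.55 and 6.31 CPM in Mps1sKO libraries. *Rian*, a noncoding RNA that hosts small nucleolar RNAs, had 11 and 9 counts in control and 19 and 21 counts in Mps1sKO libraries. On these rows both genes lay above control in both Mps1sKO libraries, with a log2 fold change of 0.49 for *Meg3* (SE 0.184, adjusted p = 0.515 from edgeR) and of 1.15 for *Rian* (SE 0.397, adjusted p = 0.505 from edgeR).

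The table also holds 3 loci without a gene name on the scaffold CHR_MG4180_PATCH, an alternative sequence for a stretch of the genome that keeps the chromosome's numbering. Their positions and strand are those of *Dlk1*, *Meg3* and *Rian*, and the table notes an EGF-like domain for the first, although it does not name the chromosome of the scaffold. These loci held most of the reads. The *Dlk1* locus, which spans 109453436 to 109460659, held 178 and 126 counts in control and 129 and 156 counts in Mps1sKO libraries, with overlapping groups and a log2 fold change of 0.056 (SE 0.224, adjusted p = 0.958 from edgeR). Reads at the position of *Dlk1* were thus present in every library, at a mean of 3.31 FPKM over the length of that locus.

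For *Meg3*, the patch locus from 109540924 to 109572237 took 93.5% of the reads of the pair. It was at 83.7 and 75.8 CPM in control and 100 and 80.2 CPM in Mps1sKO libraries. With both places summed, *Meg3* was at 89.1 and 80.4 CPM in control and 108 and 86.5 CPM in Mps1sKO libraries. The groups then overlapped, and the log2 fold change was 0.20 (SE 0.124, adjusted p = 0.634 from edgeR).

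For *Rian*, summing turned the direction. The patch locus, from 109600348 to 109662117, starts 3592 bases before the annotated gene. Its counts were 497 and 462 in control and 137 and 306 in Mps1sKO libraries, which is 18.5 and 16.0 CPM against 5.91 and 11.4 CPM. Both Mps1sKO libraries were below both controls, although they differed from each other more than the controls did, and the log2 fold change was −0.98 (SE 0.270, adjusted p = 0.494 from edgeR and 0.0766 from DESeq2). Summed with the chromosome 12 row, *Rian* had 508 and 471 counts in control and 156 and 327 counts in Mps1sKO libraries, giving a log2 fold change of −0.89 (SE 0.251, adjusted p = 0.494 from edgeR). The share of the summed reads on the patch was 97.8% and 98.1% in control and 87.8% and 93.6% in Mps1sKO libraries. Why the reads fall on the patch in different shares was not tested, and the direction of *Rian* depends on which rows are read.

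**Figure D3:**
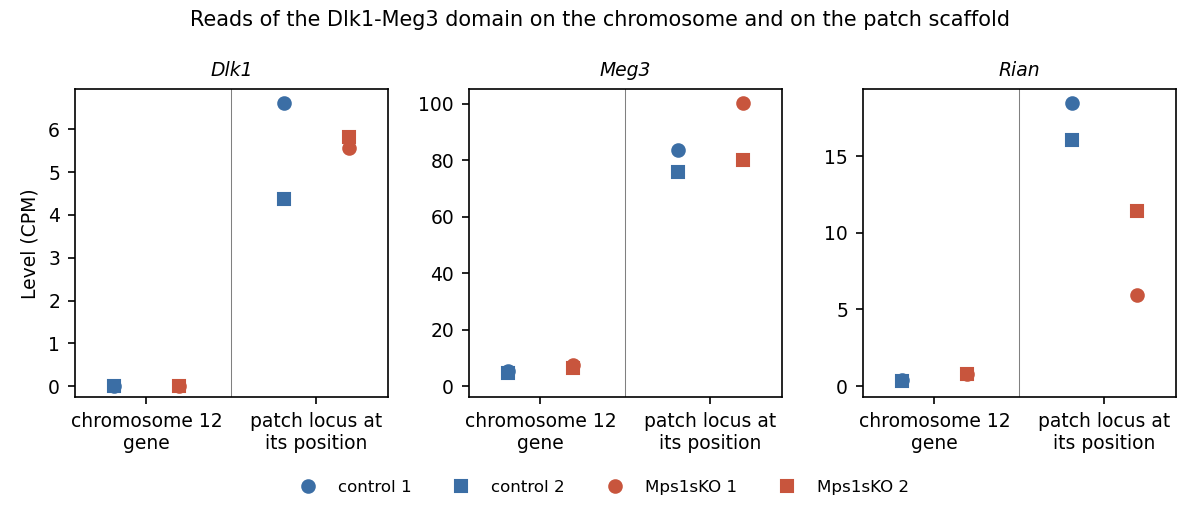
Level in CPM (vertical axis, each panel on its own scale) of *Dlk1*, *Meg3* and *Rian* on the chromosome 12 gene (left of the line) and on the patch scaffold locus at the same position (right), with 1 point per library (blue control, red Mps1sKO, circle replicate 1, square replicate 2). The patch loci hold most of the reads, with *Rian* lower there in both Mps1sKO libraries and higher on chromosome 12.

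*Mirg*, the noncoding RNA further downstream that hosts microRNAs, lies on chromosome 12 from 109729764 to 109749460 and has no such locus in the table. It was at 6.87 and 6.31 CPM in control and 8.33 and 8.55 CPM in Mps1sKO libraries. The groups were apart, with a log2 fold change of 0.36 (SE 0.154, adjusted p = 0.537 from edgeR). *Mirg* thus had a positive estimate while *Rian*, with both places summed, had a negative one, and the difference between them was not tested.

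All 4 members of the *Snrpn* domain on chromosome 7, which corresponds to the region of the Prader-Willi and Angelman syndromes, had positive estimates. *Magel2*, a regulator of ubiquitin ligases, was low, with 26 and 18 counts in control and 34 and 29 counts in Mps1sKO libraries, which is 0.966 and 0.624 CPM against 1.47 and 1.08 CPM. Control replicate 1 and Mps1sKO replicate 2 were close, and the log2 fold change of 0.68 had an SE of 0.355 (adjusted p = 0.594 from edgeR). *Ndn* had a log2 fold change of 0.17 (SE 0.095) and *Snrpn*, a splicing factor gene, of 0.29 (SE 0.166), with *Snrpn* at 5.92 ± 0.287 CPM (SD, n = 2) in control and 7.23 ± 0.702 CPM (SD, n = 2) in Mps1sKO libraries. Of the exon bases of *Snrpn*, 27.3% are shared with *Gm38393*, with 185 to 224 counts per library, and 10.0% with *Snurf*, at 0 counts in all libraries. *Ube3a*, a ubiquitin ligase gene that is maternally expressed in neurons, was at 121 ± 3.02 CPM in control and 125 ± 7.31 CPM in Mps1sKO libraries (SD, n = 2 each), for a log2 fold change of 0.046 (SE 0.090). The paternally expressed *Snhg14*, which runs antisense to *Ube3a* and shares 8.74% of its exon bases, had a log2 fold change of 0.26 (SE 0.129, adjusted p = 0.583 from edgeR).

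In the *Igf2r* domain, the paternally expressed antisense RNA *Airn* was at 6.02 ± 0.0122 CPM in control and 7.39 ± 0.108 CPM in Mps1sKO libraries (SD, n = 2 each), with groups apart and a log2 fold change of 0.29 (SE 0.155). *Igf2r*, which it overlaps in the opposite direction, was at 124 ± 0.588 and 129 ± 19.7 CPM (SD, n = 2 each), and its log2 fold change of 0.066 (SE 0.115) turned to −0.098 without Mps1sKO replicate 1. The strand of the reads is not given, so reads from *Igf2r* introns within *Airn* could not be told apart from *Airn*. At the *H19*-*Igf2* domain both genes had negative estimates within their errors, −0.092 (SE 0.106) for *H19* and −0.18 (SE 0.227) for *Igf2*, and each turned positive without 1 library, to 0.006 and 0.083.

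The *Peg3* domain on chromosome 7 held genes of both directions. *Peg3* had a log2 fold change of 0.080 (SE 0.086), and *Zim1*, which lies beside it and is maternally expressed, was at 86.2 ± 5.25 CPM in control and 97.3 ± 0.790 CPM in Mps1sKO libraries (SD, n = 2 each), for a log2 fold change of 0.18 (SE 0.091). *Usp29*, a ubiquitin protease gene that starts 147 bases from *Peg3* on the other strand, had 41 to 104 counts per library and a log2 fold change of −0.47 (SE 0.278), with overlapping groups. Its exons share 14.3% of their bases with *Zim3*.

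The remaining paternally expressed members stand alone in their domains. *Mest*, a hydrolase-like gene whose window holds 2 hexamers, was at 23.0 ± 1.67 CPM in control and 27.5 ± 5.03 CPM in Mps1sKO libraries (SD, n = 2 each), with overlapping groups and a log2 fold change of 0.26 (SE 0.146). Of its exon bases, 23.1% are shared with *Copg2* on the other strand, which had 3052 to 3893 counts per library, and the strand of the reads is not given, so reads there cannot be told apart. The noncoding RNA *Peg13* had a log2 fold change of 0.26 (SE 0.139), and *Trappc9*, inside an intron of which it lies on the same strand, one of 0.23 (SE 0.114). *Impact* (0.010), *Slc38a4* (0.043), *Zrsr1* (−0.042) and *Nnat* (−0.11) had log2 fold changes smaller than their standard errors, and each changed sign under at least 1 alternative. *Rasgrf1* had a log2 fold change of −0.28 (SE 0.246). *Nap1l5*, with 30 to 73 counts per library, had an estimate of −0.57 (SE 0.337), with overlapping groups.

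Of the genes with both parental patterns, *Gnas* was at 104 ± 13.5 CPM in control and 118 ± 4.81 CPM in Mps1sKO libraries (SD, n = 2 each), for a log2 fold change of 0.18 (SE 0.110). The transcripts of *Gnas* are imprinted in different ways and are summed in 1 row. *Grb10* had a log2 fold change of 0.13 (SE 0.110) with overlapping groups. *Dcn*, the second highest member, had one of 0.063 (SE 0.092), and the summed stromal markers also overlapped between groups, at 3520 and 3911 CPM in control and 3325 and 3897 CPM in Mps1sKO libraries.

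Other imprinted genes, which were not among the 33, had medians below 0, and their difference from the members was not tested. Over all loci, 3.92% were higher and 5.37% lower at an unadjusted p below 0.05 from edgeR. Of 18 further paternally expressed genes, 15 were tested, with 5 positive and 10 negative log2 fold changes and a median of −0.079. In this list 0 were higher and 2 lower at an unadjusted p below 0.05, which are *Nespas*, an antisense RNA of the *Gnas* domain (−0.74, SE 0.268, adjusted p = 0.507 from edgeR), and the phosphatase gene *Inpp5f* (−0.25, SE 0.105, adjusted p = 0.529 from edgeR). *Nespas* shares 8.83% of the exon bases of *Gnas*. Of 24 further maternally expressed genes, 20 were tested, with 10 positive and 10 negative log2 fold changes and a median of −0.014. Here 2 were higher and 0 lower at that threshold, which are *Phactr2*, a phosphatase and actin regulator gene next to *Plagl1* (0.26, SE 0.085, adjusted p = 0.497 from edgeR), and *Ppp1r9a* near *Peg10* (0.22, SE 0.089, adjusted p = 0.529 from edgeR).

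Factors that keep imprints through cell division had a median log2 fold change of 0.009 over 13 of 14 genes tested. Of these 13, 0 were higher and 2 lower at an unadjusted p below 0.05, against 3.92% and 5.37% of all loci. The lower ones are *Hells*, a chromatin remodeller (−0.36, SE 0.130, adjusted p = 0.511 from edgeR), and *Uhrf1*, which brings the maintenance methyltransferase to replicated DNA (−0.23, SE 0.094, adjusted p = 0.527 from edgeR). Among the genes of the IGF axis, 15 of 16 were tested with a median of 0.039. Of these 15, 0 were higher and 1 lower at that threshold, against the same shares of all loci. The lower one is the binding protein gene *Igfbp2* (−0.26, SE 0.095, adjusted p = 0.512 from edgeR). The adjusted p was below 0.05 for 0 genes of these 4 lists, against 0.0292% of all loci.

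The cell-type lists give the setting of the imprinted genes in whole testis, where 3.92% of all loci were higher and 5.37% lower at an unadjusted p below 0.05 from edgeR. Sertoli markers had a median log2 fold change of 0.27 over 22 genes, 9 higher and 0 lower at an unadjusted p below 0.05, and Leydig markers one of 0.17 over 12 genes with 0 in either direction. Meiotic prophase markers had a median of −0.60 over 29 genes, with 0 higher and 24 lower, differentiating spermatogonia markers one of −0.28 over 5 genes with 3 lower, and undifferentiated spermatogonia markers one of −0.094 over 16 genes with 4 lower. Medians were −0.053 for peritubular myoid, −0.010 for stromal, 0.081 for endothelial and −0.13 for macrophage markers, with 1 endothelial gene higher and 0 others past that threshold. The median over the imprinted genes was 0.087, and the part of these cell types in it was not tested.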

How the data were processed

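RNA was sequenced from whole P10 testes, 2 control and 2 Mps1sKO libraries, and the labels gave their genotype. They also give NEBNext Ultra mRNA libraries and paired-end Illumina NovaSeq reads, and the submitters' processing notes name HISAT2 2.0.5, featureCounts, DESeq2 1.16.1 and mm10. The strand setting is not given in the sources used here. The authors deposited 1 table of 55820 loci with raw counts per gene and FPKM values. All 33 members' lengths equal the summed exons of GENCODE M21 (GRCm38). FPKM was used only to order levels between genes, and CPM is counts scaled to a library's total times its TMM factor.

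The raw counts went into edgeR 4.0.16 under R 4.3.3 (filterByExpr, TMM, two-sided quasi-likelihood F test on genotype), with p adjusted by the Benjamini-Hochberg method over the 20561 loci tested. SE is the standard error of the log2 fold change, and the common biological coefficient of variation was 0.106. The members, parental classes and lists were chosen with earlier results of these data known. Values in every library were given for members with an unadjusted p below 0.05, for those with groups apart and an absolute log2 fold change above 0.3, and for the 5 highest by FPKM. Other lists' genes were named for an unadjusted p below 0.05 or an overlap with a member. *Rhox5* and *Trappc9* were named after their values were seen. Alternatives were leaving out each library, DESeq2 1.42.0, limma-voom (limma 3.58.1), edgeR with DESeq2's scaling or with the library size alone, no filter, a minimum of 10 counts in all libraries, robust dispersion, the replicate block and annotated genes alone. Summing the patch loci and a crossed block were added after the data were seen. The scripts were tested on simulated data. Libraries of 23311689 to 28607746 counts limit genes of few counts most.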

Additional observations from a re-analysis of the deposited data

How the results depend on the processing

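Of the 32 members tested, the number with an unadjusted p below 0.05 that were higher was 5 with edgeR. It was 2 with DESeq2 (1.51% of all loci higher in that fit), 3 with the replicate block (1.72%) and 3 with the patch loci summed (3.91%). It was 0 without control replicate 2 (1.49%) and 2 without Mps1sKO replicate 1 (5.81%). With all 4 libraries, lower members numbered 0 with edgeR (5.37% of all loci lower) and 1 with the patch loci summed (*Rian*, at −0.89, with 5.37% of all loci lower). The count of 0 lower members did not hold for every library left out. Estimates that stayed below 0 then ranged from −0.844 to −0.184 for *Usp29*, −0.884 to −0.152 for *Nap1l5*, −0.654 to −0.003 for *Phlda2* and −0.533 to −0.047 for *Rasgrf1*. The median log2 fold change with a library left out was 0.098 to 0.158 for paternally and 0.060 to 0.184 for maternally expressed genes, and their difference was −0.077 to 0.042. Members with both Mps1sKO libraries below both controls numbered 0, 1 with the patch loci summed and 5 to 7 with a library left out, when 16 to 18 were above. With a library left out, 32.0% to 37.9% of all loci were below and 31.3% to 38.4% above, since 1 library is then set against 2. Fits without 1 library leave a group with 1 library, which is assumed to vary like the others.

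With a library left out, log2 fold changes that crossed 0 ranged from −0.197 to 0.006 for *H19*, −0.409 to 0.083 for *Igf2*, −0.098 to 0.215 for *Igf2r*, −0.051 to 0.140 for *Cdkn1c*, −0.493 to 0.226 for *Slc22a18*, −0.003 to 0.246 for *Grb10*, −0.014 to 0.106 for *Ube3a*, −0.031 to 0.209 for *Sgce*, −0.249 to 0.036 for *Nnat*, −0.032 to 0.051 for *Impact* (−0.011 by library size only), −0.018 to 0.141 for *Dcn*, −0.120 to 0.032 for *Zrsr1* and −0.168 to 0.223 for *Slc38a4*. With all 4 libraries the unadjusted p of each of these 13 was above 0.05 in edgeR, and with a library left out it fell below 0.05 for *Grb10* without Mps1sKO replicate 2, at 0.246. The causes of these shifts were not tested.

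The replicate numbers share only a number. Deviations of same-numbered libraries correlated at −0.238, so the crossed pairing was fitted after the data were seen, and it gave 10 higher members at an unadjusted p below 0.05 (9.13% of all loci, against 3.92% without a block) and 1 at an adjusted p below 0.05, with 550 loci at that threshold over the whole table against 6 without a block and 2 with the replicate block. The 1 member was *Peg10* (adjusted p = 0.032 from edgeR). Under the other alternatives with all 4 libraries, the count of members at an adjusted p below 0.05 stayed at 0. Over all loci, the fewest at that threshold were then 2 of 20561 with the replicate block, and the most were 390 of 35262 with no filter. Members of few counts, such as *Slc22a18*, *Magel2* and *Nap1l5*, have the widest errors, and 2 libraries per group limit every test.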
